A study of Mus musculus with 16 samples.

Results

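Kainate receptors are glutamate-gated ion channels built from 4 subunits, and the mouse genes Grik1 to Grik5 encode the subunits GluK1 to GluK5. GluK1, GluK2 and GluK3 can form channels by themselves, whereas GluK4 and GluK5 bind glutamate with higher affinity and form working channels only together with GluK1, GluK2 or GluK3. In the hippocampus these receptors are best known from the synapses of dentate granule cells onto CA3 pyramidal cells and from interneurons, where they act on both sides of the synapse. The members described here are all transcripts listed under the gene names Grik1 to Grik5. They are 23 of the 80137 transcripts measured and 5 of the 18287 gene names. Grik1 and Grik2 had 7 transcripts each, Grik3 had 1, Grik4 had 2 and Grik5 had 6.

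RNA of the hippocampus was sequenced in 16 wild type male C57BL/6 mice of 3 months, 4 in each of 4 groups. Left and right hippocampus of a mouse went into 1 library. Homecage (HC) mice received no shock, no escape trial and no handling. Control (Ctrl) mice were put into the shuttle box on the first day without inescapable shocks and were later given 30 escape trials at 0.4 mA. Mice labelled helpless (LH) or non-helpless (NLH) were first exposed to inescapable shocks, 180 at 0.4 mA, then given the 30 trials of the Ctrl mice, and were told apart afterward by how they escaped, so that these groups were formed by behavior and not by treatment. Tissue was collected 3 h after the test. Expression is given as FPKM, the fragments of a transcript per kilobase of its length and scaled to the mapped fragments of the library, so that levels can be compared between genes. Gene sums are FPKM added over the transcripts of a gene name.

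Neuronal markers were high in every library, with Snap25 between 281 and 378 FPKM, and the markers of CA1, CA3, dentate granule cells and interneurons were above 0.1 FPKM in every mouse, except the CA1 marker Wfs1, at 0.00225 FPKM in LH replicate 4. Choroid plexus markers varied most, from 1.45 to 69.9 FPKM summed over 3 genes. The endothelial marker Flt1 was at 10.6 FPKM in LH replicate 4 and at 1.43 to 4.31 FPKM in the other mice. LH replicates 3 and 4 stood apart from the other libraries, with 10846 and 15504 transcripts at an FPKM of 0 against 4872 to 7352 in the other 14 mice. They also carried the lowest summed CA1 markers of the 16 mice, 28.4 and 21.0 FPKM against 32.3 to 51.7 elsewhere. In whole tissue, fewer cells of a type and less RNA per cell cannot be told apart. The LH differences of gene sums, named transcripts and partner genes past a threshold are given with and without these libraries, as are some correlations between genes. The tests over the 4 groups together and of the usage of single transcripts were also repeated without them. Their values are printed for all 16 mice, and usage differences that changed sign are given at the end. The remaining LH tests are given for all 16 mice only.

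The transcripts of a gene differed in sequence at places that matter for the protein. Positions and sequences are from GENCODE vM21 (mouse build GRCm38, which is mm10), which held 18 of the 23 transcripts, among them 2 of the 7 of Grik2. Grik1 lies at chr16:87895900-88290265, Grik2 at chr10:49094833-49788766, Grik4 at chr9:42518135-42944493 and Grik5 at chr7:25009849-25072346, all on the minus strand, and Grik3 lies at chr4:125490700-125714173 on the plus strand. The matched transcripts of Grik2 end in different coding exons, and thus encode different cytoplasmic tails. The coding parts of these last exons are shown because the choice of end defines the GluK2 variant, with the stop codon in capitals. The first lies at chr10:49105018-49105065 (48 bases) and the second at chr10:49101108-49101272 (165 bases).
ENSMUST00000079751.8: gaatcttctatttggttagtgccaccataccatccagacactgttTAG
ENSMUST00000105484.9: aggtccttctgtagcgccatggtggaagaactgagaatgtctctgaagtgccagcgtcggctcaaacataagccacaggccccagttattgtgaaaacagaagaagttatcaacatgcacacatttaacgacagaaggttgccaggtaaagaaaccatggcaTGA

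In Grik1, ENSMUST00000072256.12 carries an exon of 87 bases at chr16:87896809-87896895 that ENSMUST00000023652.15 lacks. It is shown because it sets these GluK1 variants apart, in capitals between 15 bases on either side.
ENSMUST00000072256.12: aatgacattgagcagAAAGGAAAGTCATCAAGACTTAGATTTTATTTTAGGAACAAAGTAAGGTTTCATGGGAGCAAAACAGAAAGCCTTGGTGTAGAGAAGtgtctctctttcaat

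The annotation classes 3 transcripts of Grik1 and 3 of Grik5 as retained intron. Such a transcript carries sequence that is spliced out of the coding mRNA, and it is not annotated as coding for a protein. The exon and intron borders of the most abundant of them in each gene, and of the Grik5 transcript that the comparisons below turn on, are shown with 30 intron bases in capitals next to 30 exon bases. The Grik1 transcript holds 698 bases of its intron, and the stretch printed is chr16:87935868-87935927. Of the Grik5 transcripts, ENSMUST00000205661.1 holds the first 358 bases of an intron of 1376 bases (printed chr7:25060440-25060499), and ENSMUST00000206132.1 holds the last 338 bases of the same intron (printed chr7:25059064-25059123).
Grik1 ENSMUST00000211635.1: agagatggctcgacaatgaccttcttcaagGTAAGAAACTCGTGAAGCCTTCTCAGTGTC
Grik5 ENSMUST00000205661.1: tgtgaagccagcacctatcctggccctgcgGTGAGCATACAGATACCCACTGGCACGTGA
Grik5 ENSMUST00000206132.1: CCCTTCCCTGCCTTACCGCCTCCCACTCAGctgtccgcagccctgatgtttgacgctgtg

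Because the genes are related, the coding sequences of 1 transcript of each gene were compared. Identity over aligned bases was 72.7% between Grik1 and Grik2, 72.3% between Grik2 and Grik3, 71.2% between Grik4 and Grik5 and as low as 56.6% between Grik1 and Grik4. The longest run of identical bases between any 2 members was 38 bases (Grik3 and Grik5), against reads of 150 bases from each fragment end. The stretches around the runs of 35 bases shared by Grik1 with Grik2 and by Grik4 with Grik5 are shown, with the bases that differ within each pair in capitals. They number 6 and 7 of 89.
Grik1 ENSMUST00000023652.15: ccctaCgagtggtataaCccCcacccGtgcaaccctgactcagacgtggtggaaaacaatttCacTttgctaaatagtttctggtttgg
Grik2 ENSMUST00000079751.8: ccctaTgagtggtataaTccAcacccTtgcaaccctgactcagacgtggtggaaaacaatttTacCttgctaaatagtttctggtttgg
Grik4 ENSMUST00000034515.6: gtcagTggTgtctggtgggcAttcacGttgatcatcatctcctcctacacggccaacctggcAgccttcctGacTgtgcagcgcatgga
Grik5 ENSMUST00000003468.9: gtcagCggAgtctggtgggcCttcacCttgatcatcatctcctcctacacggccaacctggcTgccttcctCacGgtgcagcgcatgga

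Grik2 was the most abundant kainate receptor gene, followed by Grik5, and the other 3 genes were far lower. Over the 16 mice the gene sums were 23.2 ± 2.30 FPKM for Grik2, 17.4 ± 2.65 for Grik5, 3.45 ± 0.562 for Grik3, 2.86 ± 0.760 for Grik4 and 2.31 ± 0.416 for Grik1 (SD, n = 16). Of the kainate receptor FPKM of a mouse, Grik2 held 47.2% and Grik5 35.3% on average. Grik2 lay above 95.4% of all gene names and Grik1 above 56.5%. The order Grik2, Grik5, Grik3 held in 16 of 16 mice, with Grik2 at 1.11 to 1.68 times Grik5 and Grik5 at 3.29 to 7.18 times Grik3. The lower end of the order was less firm. Grik3 exceeded Grik4 in 14 of 16 mice and Grik4 exceeded Grik1 in 13 of 16, so that these neighbors overlapped across mice.

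**Figure D1:**
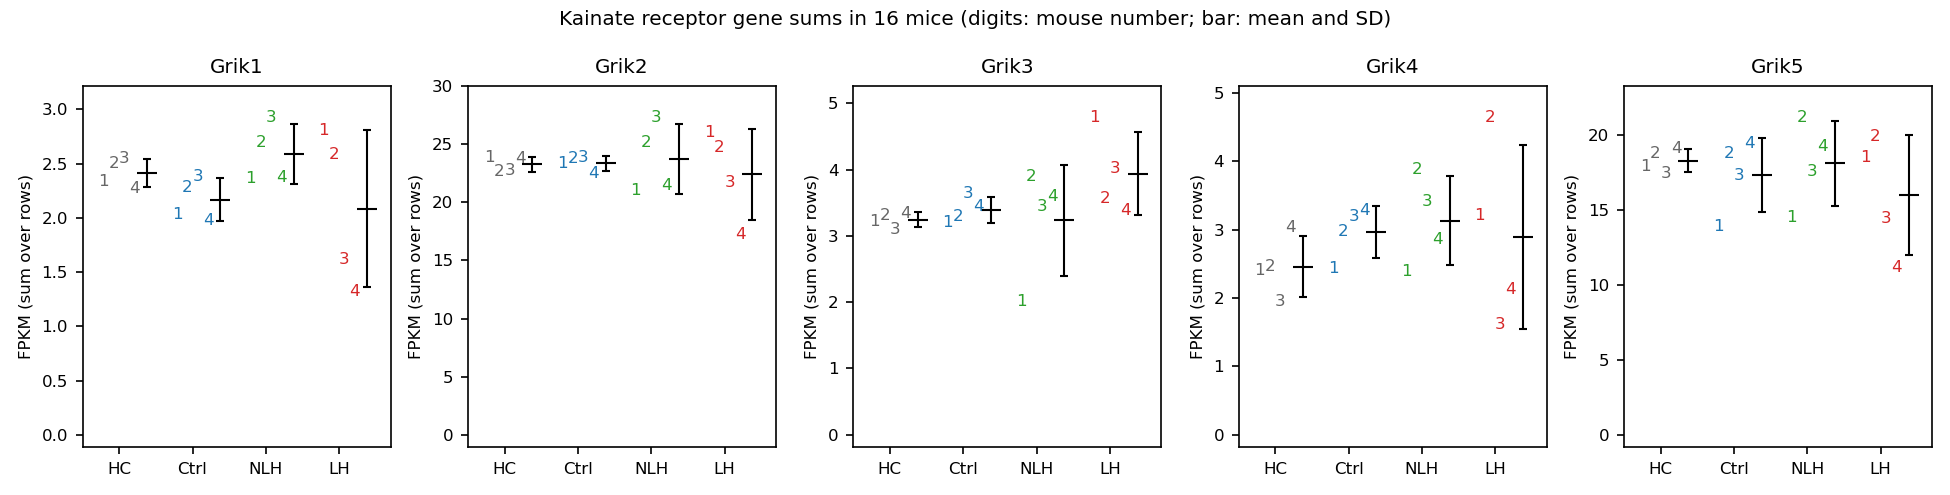
Gene sums of Grik1 to Grik5 in FPKM (y axis, from 0) in the HC, Ctrl, NLH and LH groups (x axis). Each digit is the mouse of that number and the bars beside them are the mean and SD of 4 mice. The LH mice spread widely in Grik1, Grik4 and Grik5, with LH 3 and LH 4 below LH 1 and LH 2 in these genes.

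The table also held 22 assembled transcripts without a gene name at the 5 loci, which are not members. They carried 54.8% of the FPKM at the Grik4 locus, 29.0% at Grik2, 25.3% at Grik1, 20.4% at Grik5 and 2.93% at Grik3. When they were added, the Grik4 locus rose to a mean of 6.34 FPKM and lay above the Grik3 locus, at 3.56 FPKM, in 16 of 16 mice. The order of Grik3 and Grik4 thus depended on whether the assembled transcripts were counted.

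The subunits that form channels by themselves come first. For Grik1, which encodes GluK1, the gene sum in HC mice was 2.34, 2.51, 2.54 and 2.27 FPKM. In Ctrl mice it was 2.03, 2.28, 2.38 and 1.97 FPKM, and in NLH mice 2.36, 2.70, 2.92 and 2.37 FPKM. In LH mice it was 2.81, 2.58, 1.62 and 1.32 FPKM, so that LH replicate 1 had the second highest value of the 16 mice and LH replicates 3 and 4 the lowest. The groups of the gene sum overlapped in every comparison. With the assembled transcripts at the locus added, LH replicate 4 had the highest value of the 16 mice, 3.74 FPKM. LH replicate 3 then had the lowest, 2.34 FPKM.

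The Grik1 sum was made up mostly of transcripts that are not annotated as coding. Its 3 retained-intron transcripts, ENSMUST00000211635.1, ENSMUST00000210700.1 and ENSMUST00000210910.1, had means of 0.593, 0.456 and 0.433 FPKM and together held 64.1% of the sum. The 4 protein coding transcripts added up to a mean of 0.831 FPKM. ENSMUST00000023652.15 was the highest of these at 0.507 FPKM, and ENSMUST00000072256.12, which carries the extra exon shown above, had 0.179 FPKM. No transcript of Grik1 was above 0.01 FPKM in all 16 mice. ENSMUST00000023652.15, for example, was at 1.16 and 0.965 FPKM in LH replicates 1 and 2 and under 0.01 FPKM in LH replicates 3 and 4.

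Grik2, which encodes GluK2 and was among the genes the authors selected for real time PCR after sequencing, varied little in HC and Ctrl mice. Its gene sum was 23.9, 22.6, 22.8 and 23.8 FPKM in HC and 23.3, 23.8, 23.9 and 22.5 FPKM in Ctrl. In NLH it was 21.0, 25.2, 27.3 and 21.4 FPKM, and in LH 26.0, 24.7, 21.7 and 17.2 FPKM. The SD was thus 0.657 and 0.650 FPKM in HC and Ctrl against 3.02 and 3.91 FPKM in NLH and LH, and both later groups reached above and below the earlier ones. With the assembled transcripts at the locus added, the SD was 1.45, 0.278, 3.09 and 2.19 FPKM in HC, Ctrl, NLH and LH. The lowest LH mouse was then at 30.8 FPKM, above the lowest HC mouse at 29.7 FPKM.

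ENSMUST00000079751.8, the transcript with the short coding end shown above, was the highest of Grik2 at 10.2 ± 1.56 FPKM (SD, n = 16), 43.9% of the sum. ENSMUST00000105484.9, with the long coding end, had a mean of 0.0307 FPKM and was under 0.01 FPKM in 12 of 16 mice. The remaining 5 transcripts held 55.9% of the sum. Their identifiers were not matched in GENCODE vM21, so that their coding ends are not given here and the long end may be carried by them. ENSMUST00000147808.1 had 4.69 FPKM, ENSMUST00000105487.7 had 3.95, ENSMUST00000105483.1 had 2.96 and ENSMUST00000105485.7 had 1.21 on average, while ENSMUST00000129279.1 had 0.149.

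Grik3, which encodes GluK3, had a single transcript, ENSMUST00000030676.7. Its level was 3.23, 3.31, 3.10 and 3.35 FPKM in HC and 3.20, 3.29, 3.64 and 3.44 FPKM in Ctrl. It was 2.01, 3.90, 3.44 and 3.60 FPKM in NLH and 4.79, 3.56, 4.02 and 3.39 FPKM in LH. NLH replicate 1 had the lowest level of the 16 mice and LH replicate 1 the highest. With the assembled transcript at the locus added, NLH replicate 1 was at 3.18 FPKM. The lowest of the 16 mice was then HC replicate 3 at 3.10 FPKM, and LH replicate 1 stayed the highest. LH replicate 1 also had the highest sum of 2 thalamus markers, 13.9 FPKM against 2.33 to 5.57 FPKM in the other mice, and the part of this in its Grik3 level was not tested.

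The high-affinity subunits follow. Grik4, which encodes GluK4, had gene sums of 2.40, 2.46, 1.95 and 3.04 FPKM in HC, 2.43, 2.98, 3.19 and 3.28 FPKM in Ctrl, 2.39, 3.88, 3.41 and 2.85 FPKM in NLH and 3.21, 4.64, 1.61 and 2.12 FPKM in LH. LH held the highest and the lowest of the 16 values. ENSMUST00000034515.6 carried 72.3% of the sum at 2.07 FPKM and ENSMUST00000114865.7 carried 27.7% at 0.793 FPKM.

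Grik5, which encodes GluK5, had gene sums of 17.9, 18.7, 17.4 and 19.1 FPKM in HC, 13.9, 18.7, 17.3 and 19.4 FPKM in Ctrl, 14.5, 21.1, 17.6 and 19.2 FPKM in NLH and 18.5, 19.9, 14.4 and 11.1 FPKM in LH. The lowest value was again in LH replicate 4. The protein coding ENSMUST00000003468.9 held 70.6% of the sum at 12.3 ± 2.52 FPKM (SD, n = 16). The 3 retained-intron transcripts held 24.1%, of which ENSMUST00000205661.1 had 2.11, ENSMUST00000206132.1 had 1.78 and ENSMUST00000206095.1 had 0.301 FPKM. A pair of transcripts annotated as targets of nonsense-mediated decay, in which a premature stop codon marks an mRNA for degradation, held 5.32%, nearly all of it in ENSMUST00000205328.1 at 0.912 FPKM.

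**Figure D2:**
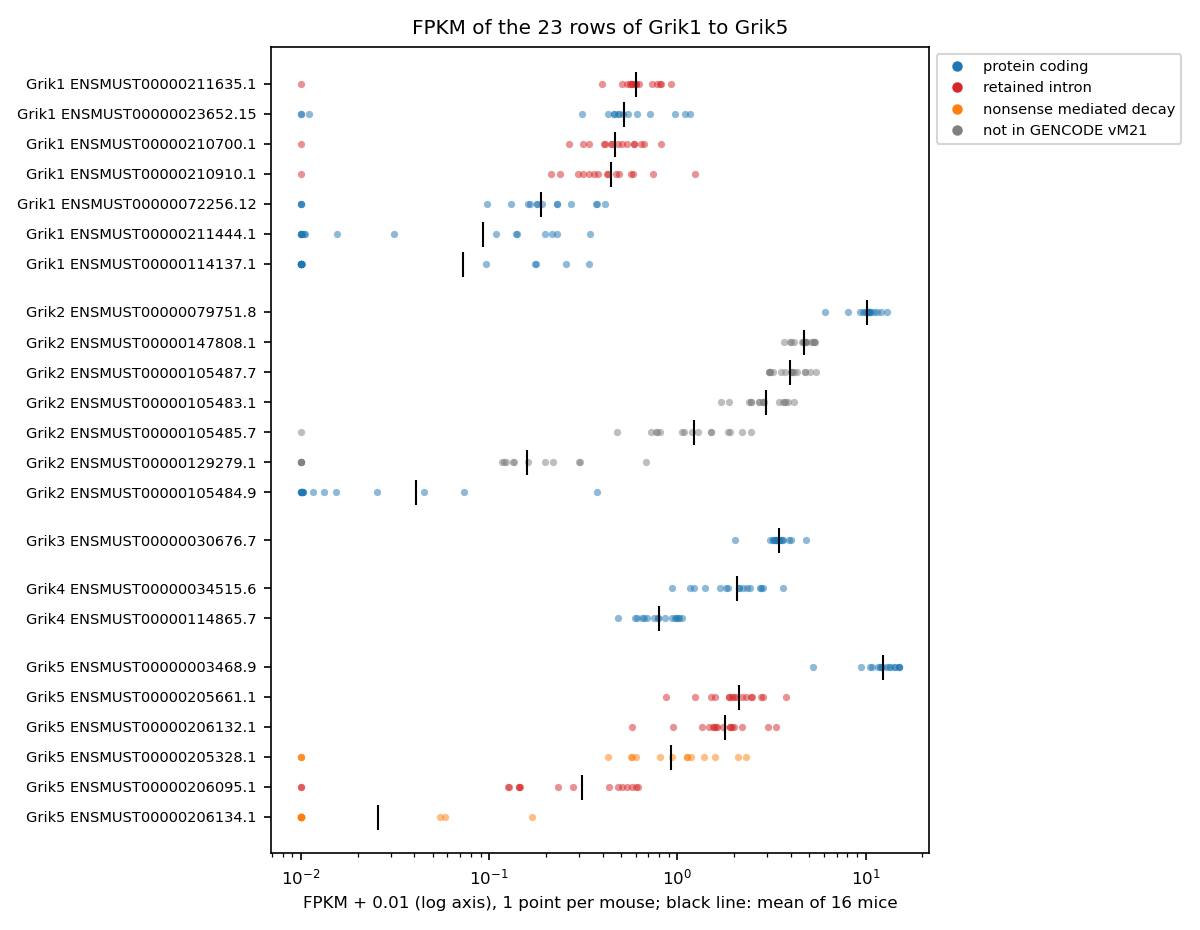
FPKM + 0.01 on a log axis (x) of the 23 transcripts of Grik1 to Grik5 (y), with 1 point per mouse, a black line at the mean of 16 mice and colors for the GENCODE class. Of the 23 transcripts, 10 were above 0.01 FPKM in all 16 mice, none of them of Grik1, and the points at the left edge are mice listed at or near 0.

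The share of retained-intron transcripts overlapped between the 4 groups. In Grik1 it was 67.4 ± 9.57% among HC mice, 63.8 ± 9.41% among Ctrl mice, 63.8 ± 5.30% for NLH and 66.7 ± 21.9% for LH (SD, n = 4 each). LH ranged from 46.3% to 92.6%, with replicates 3 and 4 above replicates 1 and 2. In Grik5 the share was 24.5 ± 3.00%, 25.6 ± 4.37%, 24.4 ± 5.11% and 23.1 ± 9.30% in the same order. None of the 8 comparisons passed an exact two-sided permutation test of 4 mice against 4, with p from 0.514 to 0.971, where the smallest p possible is 0.0286.

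**Figure D3:**
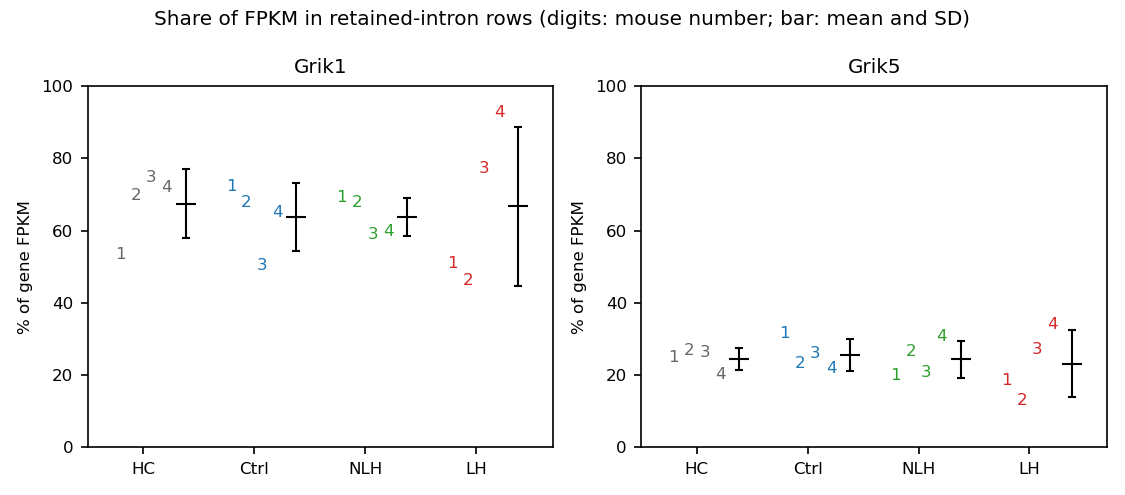
Share of a gene's FPKM held by its retained-intron transcripts in percent (y axis, 0 to 100) for Grik1 and Grik5 in the 4 groups (x axis). Digits are mouse numbers and the bars are the mean and SD of 4 mice. In both genes LH 3 and LH 4 lie above LH 1 and LH 2, and the 4 groups overlap.

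The first comparison, Ctrl vs. HC, covers handling, time in the shuttle box and the escape trials with their shocks, in mice without inescapable stress. No kainate receptor gene passed the adjusted threshold in limma, a linear model fitted to log2(FPKM + 0.1) of all genes and 16 mice, at which 0% of all gene names were called. None had an unadjusted p under 0.05 either, against 2.7% of all gene names. The groups of every gene sum overlapped, whereas 5.24% of gene names had groups that did not. The differences ran from -0.15 (Grik1, 95% confidence interval -0.56 to 0.26) to 0.27 (Grik4, -0.27 to 0.81) on the log2 scale. For Grik2 the difference was 0.01 with an interval of -0.25 to 0.26. The intervals and p-values of this model rest on a common spread of all groups, which for Grik2 was wider in NLH and LH. They thus do not measure the spread of the compared groups alone. Of the 23 transcripts none passed the adjusted threshold, at which 0.00374% of all transcripts were called.

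A single transcript had an unadjusted limma p under 0.05 in Ctrl vs. HC, against 3.45% of all transcripts. ENSMUST00000129279.1 of Grik2 was at 0.113 FPKM in HC replicate 1 and at 0 in the other 3 HC mice, and at 0.123, 0.187, 0.209 and 0.294 FPKM in Ctrl. The groups did not overlap, as in 4.48% of all transcripts. Its log2 difference was 1.30 ± 0.56 (SE, limma unadjusted p = 0.0362, adjusted p = 1). With HC mice at 0 its size was set by the pseudocount, at 3.45 with 0.01 and 0.23 with 1, where the unadjusted p was no longer under 0.05. It also differed from the rest of Grik2 in the test of transcript usage (limma diffSplice unadjusted p = 0.00493, adjusted p = 0.522), where 4.62% of transcripts had an unadjusted p under 0.05. The transcript made up 0.641% of Grik2 FPKM.

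NLH vs. Ctrl compares mice that escaped after inescapable shocks with mice that had none. No gene sum, transcript or usage test of the 5 genes passed the adjusted threshold in limma, against 0.00547% of all gene names, 0.0125% of all transcripts and 0.439% of the transcripts tested for usage. None had an unadjusted p under 0.05, against 5.59%, 5.12% and 6.41%. All groups overlapped, where 6.04% of gene names and 5.02% of transcripts had groups that did not. The difference farthest from 0 was that of Grik1, 2.59 ± 0.274 FPKM in NLH and 2.17 ± 0.197 FPKM in Ctrl (SD, n = 4 each), or 0.24 on the log2 scale (-0.17 to 0.66, limma adjusted p = 0.982). The other 4 genes lay between -0.11 (Grik3) and 0.06 (Grik4), beside a median of 0.06 over all gene names. Without NLH replicate 1 the difference of Grik3 was 0.10 in place of -0.11.

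LH vs. Ctrl joins the inescapable shocks, helplessness and the longer shock received in trials with fewer escapes, which cannot be told apart in it. No gene sum of the 5 passed the adjusted threshold in limma, at which 0% of gene names were called, and none had an unadjusted p under 0.05, against 11.5% of all gene names. The log2 differences were -0.11 for Grik1, -0.08 for Grik2, 0.20 for Grik3, -0.14 for Grik4 and -0.14 for Grik5, with 95% confidence intervals that reached from -0.68 (Grik4) to 0.56 (Grik3). Only Grik3 was higher in LH. Its mean was 3.94 ± 0.626 FPKM in LH and 3.39 ± 0.193 FPKM in Ctrl (SD, n = 4 each, limma adjusted p = 0.699).

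The signs of 4 of these differences rested on LH replicates 3 and 4. Without these 2 libraries Grik1 was 0.30 higher in LH than in Ctrl on the log2 scale (0.02 to 0.58, limma adjusted p = 0.170), Grik2 0.12, Grik3 0.28, Grik4 0.38 and Grik5 0.16. None passed the adjusted threshold, at which 5.41% of gene names were then called. The median over all gene names was then 0.19, and the libraries left, LH replicates 1 and 2, had the highest summed FPKM of the 16 mice (150826 and 158004) and the highest neuronal marker sums (520 and 492 FPKM against 400 to 475 FPKM elsewhere). With size factors, which centre the mice on a common median, the differences of Grik1 to Grik5 were 0.07, -0.12, 0.04, 0.14 and -0.08, and 0.0711% of gene names were called. The direction of Grik1, Grik2, Grik4 and Grik5 in LH can therefore not be read from these mice.

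**Figure D4:**
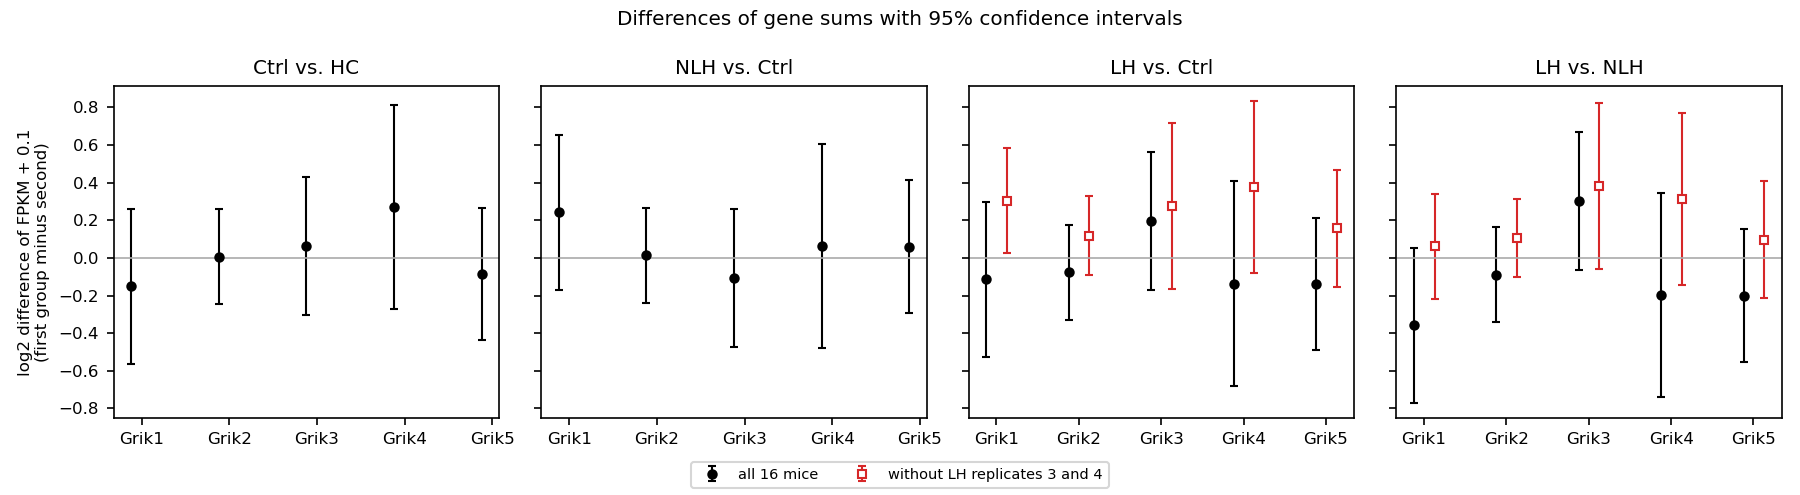
Log2 differences of FPKM + 0.1 of the gene sums (y axis, first group minus second) for Grik1 to Grik5 (x axis) in the 4 comparisons, with 95% confidence intervals from limma. Black circles use 16 mice and red squares leave out LH replicates 3 and 4. Every black interval includes 0, and in the LH comparisons 4 of the 5 genes change sign between circle and square.

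Among single transcripts in LH vs. Ctrl, none of the 23 passed the adjusted threshold in limma, against 0.0462% of all transcripts. At an unadjusted p under 0.05, 2 of 23 did, against 10.7% of all transcripts, so that the count is no higher than in the table as a whole. Both were lower in LH, and in both the groups did not overlap, as in 5.85% of all transcripts.

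The first is ENSMUST00000105483.1 of Grik2, the fourth most abundant transcript of the gene. It was at 2.71, 4.15, 3.72 and 3.64 FPKM in HC, 2.46, 3.45, 2.69 and 3.86 FPKM in Ctrl, 2.85, 2.87, 3.72 and 2.85 FPKM in NLH and 1.88, 2.44, 1.70 and 2.40 FPKM in LH. The highest LH mouse lay just below the lowest Ctrl mouse, and all 4 LH mice lay below the other 12. The share of all transcripts that set LH apart from the other 12 mice was not counted. The difference from Ctrl was -0.54 ± 0.18 on the log2 scale (SE, limma unadjusted p = 0.00905, adjusted p = 0.307, range of the adjusted p over the alternatives 0.166 to 0.544). An exact two-sided permutation test gave p = 0.0286, the smallest it can give. Without LH replicates 3 and 4 the difference was -0.50 (limma adjusted p = 0.297), and -0.63 with size factors in addition, so that this transcript kept its sign. Its difference from the other transcripts of Grik2 was -0.34 (limma diffSplice adjusted p = 0.871, range 0.467 to 0.994 over the alternatives), and no transcript of the 5 genes had an unadjusted usage p under 0.05, against 12% of transcripts (1.33% after adjustment).

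The second is the Grik5 retained-intron transcript ENSMUST00000206132.1, whose intron border is shown above. It was at 1.45, 1.74, 1.99 and 1.54 FPKM in HC, 3.02, 2.19, 1.93 and 1.88 FPKM in Ctrl, 1.88, 1.35, 1.56 and 3.33 FPKM in NLH and 0.933, 0.561, 1.60 and 1.59 FPKM in LH. LH lay below Ctrl in every mouse but overlapped HC and NLH. The difference from Ctrl was -0.97 ± 0.31 on the log2 scale (SE, limma unadjusted p = 0.00729, adjusted p = 0.286, exact two-sided permutation p = 0.0286). LH replicates 1 and 2 were lower than replicates 3 and 4, and without the latter the difference was -1.49 (limma adjusted p = 0.0607). The coding transcript of Grik5, ENSMUST00000003468.9, had 15.1 and 15.01 FPKM in the same LH replicates 1 and 2 and 10.5 and 5.26 FPKM in replicates 3 and 4. In LH the coding and this retained-intron transcript were thus high in different mice.

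**Figure D5:**
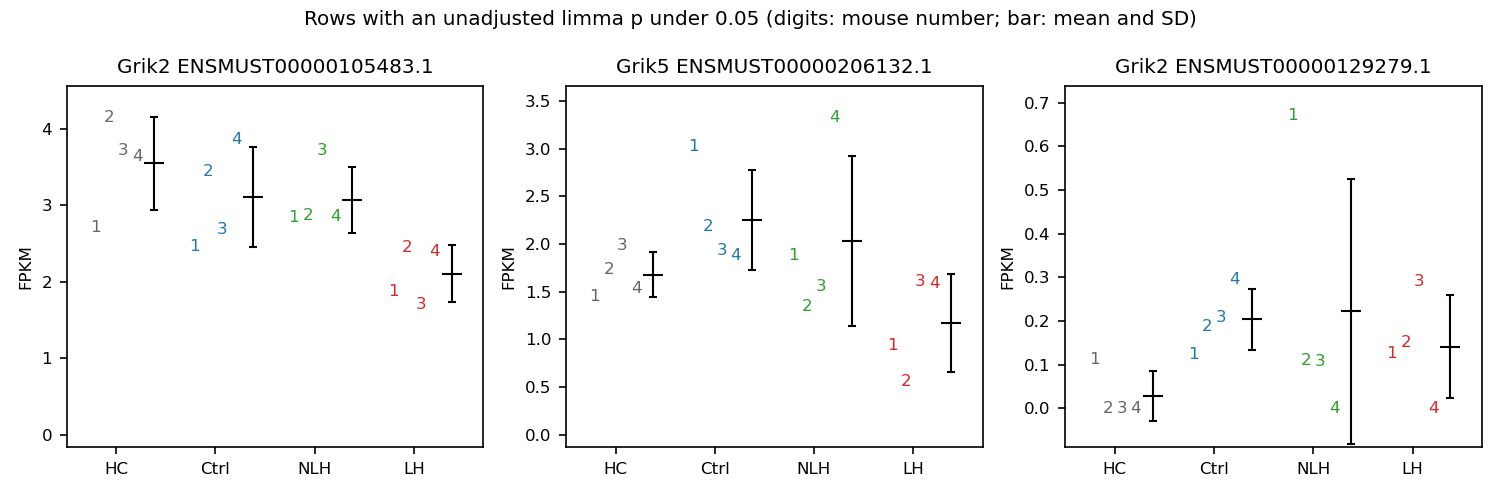
FPKM (y axis) of ENSMUST00000105483.1 and ENSMUST00000129279.1 of Grik2 and ENSMUST00000206132.1 of Grik5 in the 4 groups (x axis). Digits are mouse numbers and the bars are the mean and SD of 4 mice. The 4 LH mice of the first transcript, at 1.70 to 2.44 FPKM, do not overlap the Ctrl or the NLH mice, as in 5.85% and 3.18% of all transcripts.

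LH vs. NLH compares mice with the same inescapable shocks and a different escape behavior. As an escape ended the shock of a trial, the shock received in the trials also differed with behavior. It shares its LH mice with LH vs. Ctrl and its NLH mice with NLH vs. Ctrl, so that these comparisons are not independent. No gene sum passed the adjusted threshold in limma, against 0.0109% of gene names, and none had an unadjusted p under 0.05, against 7.54%. With size factors between mice, Grik1 (-0.32, limma adjusted p = 0.419) and Grik3 (0.35, limma adjusted p = 0.460) had an unadjusted p under 0.05, against 10.4% of gene names. The difference of Grik1 was -0.36 on the log2 scale (-0.77 to 0.05, limma adjusted p = 0.703) and that of Grik3 was 0.30 (-0.06 to 0.67, limma adjusted p = 0.717). Grik2, Grik4 and Grik5 differed by -0.09, -0.20 and -0.20. Without LH replicates 3 and 4 the differences were 0.06 for Grik1, 0.11 for Grik2, 0.38 for Grik3, 0.31 for Grik4 and 0.10 for Grik5, beside a median of 0.13 over all gene names. With size factors in addition, Grik1 to Grik5 were at -0.10, -0.06, 0.22, 0.16 and -0.06, and 0.0219% of gene names were called.

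Of single transcripts in LH vs. NLH, none passed the adjusted threshold in limma, against 0.0412% of all transcripts, and the same pair as in LH vs. Ctrl had an unadjusted p under 0.05, against 8.72%. ENSMUST00000105483.1 differed by -0.53 ± 0.18 (SE, limma adjusted p = 0.431), and its groups did not overlap, as in 3.18% of all transcripts. ENSMUST00000206132.1 differed by -0.76 ± 0.31 (SE, limma adjusted p = 0.518), with overlapping groups. Without LH replicates 3 and 4 these differences were -0.49 and -1.28 (limma adjusted p = 0.409 and 0.197). With size factors, or with only these groups in the fit, ENSMUST00000206132.1 no longer had an unadjusted p under 0.05. No transcript had an unadjusted usage p under 0.05, against 11% (0.977% after adjustment).

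Over the 4 groups together, the moderated F test gave p from 0.299 (Grik1) to 0.874 (Grik2) for the gene sums in limma, with adjusted p from 0.826 to 0.971, while 0.0766% of gene names passed the adjusted threshold and 9.96% the unadjusted one. The 2 transcripts under an unadjusted 0.05, against 8.79% of all transcripts, were ENSMUST00000105483.1 and ENSMUST00000206132.1. Their limma F test adjusted p was 0.298 and 0.534, and 0.0948% of all transcripts passed after adjustment.

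Whether the split of a gene's FPKM over its transcripts moved as a whole was tested in Grik1, Grik2, Grik4 and Grik5, on their transcripts with a mean of at least 0.1 FPKM. None of these 4 genes passed in any comparison (limma diffSplice adjusted p from 0.697 to 1, unadjusted p from 0.128 to 0.942). Of the genes with several transcripts 0.179%, 0.953%, 3.63% and 2.53% passed after adjustment in Ctrl vs. HC, NLH vs. Ctrl, LH vs. Ctrl and LH vs. NLH, and 5.01%, 8.07%, 17.3% and 15.8% before it.

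The methods' equal-variance test on FPKM, without adjustment, passed Grik1 in NLH vs. Ctrl and no other gene sum, against 8.5%, 9.57%, 8.01% and 3.5% of gene names in the same order of comparisons. Of the 23 transcripts it passed 2, 1, 2 and 1, against 6.68%, 7.2%, 7.69% and 4.47% of all transcripts. Those not yet named are ENSMUST00000034515.6 of Grik4 in Ctrl vs. HC and the retained-intron transcript ENSMUST00000210700.1 of Grik1 in NLH vs. Ctrl, with log2 differences of 0.44 and 0.51.

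The spread between mice of a group differed by gene and by group. For Grik2 the SD of log2(FPKM + 0.1) was 0.0406 among HC mice, 0.0403 among Ctrl mice, 0.182 for NLH and 0.265 for LH, and that of Grik4 was 0.250, 0.189, 0.294 and 0.647 in the same order. The median SD over gene names with a mean FPKM of at least 1 was 0.149, 0.140, 0.199 and 0.360. Grik1, Grik4 and Grik5 thus varied more than the median gene in LH, at 0.498, 0.647 and 0.377, and Grik2 and Grik3 less, at 0.265 and 0.217. In NLH, Grik3 had the widest spread of the 5 at 0.418, from NLH replicate 1. With the assembled transcript at the locus added, the SD of Grik3 in NLH was 0.360 FPKM in place of 0.839 FPKM.

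The assembled transcripts at the 5 loci gave no call after adjustment in limma. At an unadjusted p under 0.05 were 1, 3, 4 and 3 of the 22 in Ctrl vs. HC, NLH vs. Ctrl, LH vs. Ctrl and LH vs. NLH, against 3.45%, 5.12%, 10.7% and 8.72% of all transcripts. The farthest apart was MSTRG.62783.1 at Grik5, with mean FPKM of 0.0884 for HC, 1.77 for Ctrl, 0.0137 for NLH mice and 0.372 for LH. The HC and LH means came from replicate 2 of each, at 0.339 and 1.48 FPKM, with the other mice of these groups under 0.01 FPKM. Ctrl mice ran from 0.155 to 2.91 FPKM. The difference of MSTRG.62783.1 was 3.14 on the log2 scale in Ctrl vs. HC (limma adjusted p = 1) and -3.54 in NLH vs. Ctrl (limma adjusted p = 0.440). In LH vs. Ctrl it was -2.71 (limma adjusted p = 0.318). These comparisons all use the same Ctrl mice.

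Kainate receptors work with auxiliary and trafficking proteins, and a list of 21 such genes was chosen from general knowledge with earlier results of these data known. It holds the auxiliary subunits Neto1 and Neto2, which slow the closing of the channel, the secreted synaptic partners C1ql2 and C1ql3, scaffold proteins, trafficking and turnover proteins and the editing enzymes Adar and Adarb1, of which Adarb1 is the main editor of GluK1 and GluK2 mRNA. Of the 21 genes 19 were measured, and Dlg3 and Cask were not analysed here. None passed the adjusted threshold in limma in any of the 4 comparisons. In the order Ctrl vs. HC, NLH vs. Ctrl, LH vs. Ctrl and LH vs. NLH the median log2 difference of the list was 0.05, 0.06, 0.02 and -0.07, beside 0.02, 0.06, 0.00 and -0.06 over all gene names.

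At an unadjusted limma p under 0.05 were none of the 19 partner genes in Ctrl vs. HC, 3 in NLH vs. Ctrl and 2 in LH vs. Ctrl, all higher in the first group, and 1 higher and 1 lower in LH vs. NLH. Of all gene names 2.7%, 5.59%, 11.5% and 7.54% were. Neto1 was at 4.42, 5.77, 5.88 and 6.32 FPKM in Ctrl, 5.40, 10.6, 9.70 and 8.03 FPKM in NLH and 5.41, 6.72, 3.65 and 4.49 FPKM in LH. It was high in 3 of the 4 NLH mice, with a log2 difference of 0.55 from Ctrl (limma adjusted p = 0.734) and of -0.71 in LH vs. NLH (limma adjusted p = 0.450). With LH replicates 3 and 4 left out, the latter was -0.43 (limma adjusted p = 0.377) and no longer had an unadjusted p under 0.05. Neto2, the other auxiliary subunit, was at 2.02, 3.91, 2.44 and 3.78 FPKM in NLH and 5.34, 3.87, 3.92 and 3.18 FPKM in LH, and differed by 0.44 in LH vs. NLH (limma adjusted p = 0.645), or by 0.62 with LH replicates 3 and 4 left out (limma adjusted p = 0.246). The groups of both genes overlapped in LH vs. NLH (exact two-sided permutation p = 0.0857 for Neto1 and 0.171 for Neto2). With LH replicates 3 and 4 left out, the median over all gene names was 0.13 in this comparison. The mean differences of the auxiliary subunits thus lay in opposite directions in LH vs. NLH, without passing the adjusted threshold.

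Cul3, the scaffold of a ubiquitin ligase that marks GluK2 for degradation, was at 21.90, 22.997, 22.47 and 21.63 FPKM in HC, 20.1, 20.2, 21.4 and 21.5 FPKM in Ctrl and 29.9, 26.4, 27.8 and 27.3 FPKM in LH. All LH mice lay above all Ctrl mice, as in 5.59% of gene names, with a log2 difference of 0.42 (limma adjusted p = 0.139). All Ctrl mice also lay below all HC mice, by -0.10 on the log2 scale, as 5.24% of gene names did not overlap there, without an unadjusted limma p under 0.05. In NLH it was at 28.3, 28.5, 25.1 and 20.1 FPKM, 0.28 above Ctrl (limma adjusted p = 0.712). Cdh2, the adhesion protein N-cadherin, was at 9.56, 11.2, 11.5 and 10.7 FPKM in Ctrl, 13.6, 13.6, 12.3 and 11.7 FPKM in NLH and 16.9, 12.4, 12.4 and 14.3 FPKM in LH. Its groups did not overlap in NLH vs. Ctrl (0.25, limma adjusted p = 0.803) or in LH vs. Ctrl (0.37, limma adjusted p = 0.201). Dlg1 and Adarb1 also had no overlap in NLH vs. Ctrl, with 0.27 and 0.13 and an unadjusted limma p above 0.05, where 6.04% of gene names did not overlap. Without LH replicates 3 and 4, 4 of the 19 genes were higher in LH vs. Ctrl past the adjusted threshold, against 5.41% of all gene names. Among them were Snap25, Cul3 and Cdh2, with log2 differences of 0.25, 0.43 and 0.43 and limma adjusted p of 0.0354, 0.0467 and 0.0492. With size factors in addition, 0 of the 19 passed, and these differences were 0.01, 0.19 and 0.20.

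The genes whose levels ran most like those of each member were taken over the 16 mice among 10435 other gene names with a mean FPKM of at least 1. For Grik1 these were Sdad1, Rpia and Rpl36, with Pearson's r of 0.960, 0.921 and 0.921. For Grik2 they were Dnajc18, 5730409E04Rik and Wtap at 0.954, 0.949 and 0.946. For Grik3 they were Fam222b, Vipr1 and the auxiliary subunit Neto2 at 0.867, 0.836 and 0.821. For Grik4 they included Fads2 and Nos1 at 0.950 and 0.949, and for Grik5 they were Dnajc11, Tecpr2 and Ppdpf at 0.931, 0.927 and 0.925. All values come from the same 16 libraries and are given as a description. The first gene of each list was, when LH replicates 3 and 4 were left out, at 0.881 for Grik1, 0.891 for Grik2, 0.934 for Grik3 and 0.851 for Grik5. Among the 10 pairs of members, r ran from 0.0535 (Grik1 and Grik3) to 0.831 (Grik1 and Grik2), with 0.752 for Grik1 and Grik5, 0.708 for Grik2 and Grik5 and 0.663 for Grik4 and Grik5. With LH replicates 3 and 4 left out these were 0.344, 0.629, 0.313, 0.301 and 0.585 in the same order.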

How the data were processed

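The members were found by gene name in the deposited table, and members, lists and tests were chosen with earlier results of these data known. According to the methods, the authors made total RNA libraries, sequenced paired ends of 150 bases, aligned reads to mm10 with HISAT2, merged assembled transcripts over all samples with StringTie and computed FPKM per transcript with Cufflinks. The submitters' processing notes name STAR 2.42a as the aligner and StringTie 1.2.3. The deposited FPKM values carry no logarithm, and no scaling between mice was seen in them. From the FPKM steps of loci longer than 2000 bases, with fragments taken to be 200 bases long, a depth of 20175000 to 38075000 fragments was estimated for the mice. At the depth that fitted best, 69.6% to 86.6% of values lay within 0.1 of whole fragments. Chance gives 20% for a depth fixed beforehand, and its level for a best-fitting depth was not computed. The precision of low transcripts is limited by the depth. The labels give 1 library per mouse.

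The fit in limma 3.58.1 (R 4.3.3) used log2(FPKM + 0.1), 4 group means and moderation with a trend and robust variances, and p-values were adjusted by Benjamini-Hochberg over 18287 gene names or 80137 transcripts at 0.05. A difference on this scale understates changes of low transcripts. Usage was tested by limma diffSplice over 36444 transcripts with a mean of at least 0.1. Permutation tests were exact and two-sided. The fits were tested on simulated data with known changes. Named were transcripts holding at least 5% of their gene or with an unadjusted p under 0.05, partner genes under that p, and 3 like genes per member, of which some items are not reported here. Alternatives were another pseudocount (0.01 or 1), a mean of at least 1, size factors, a mouse-number block, only the compared groups, the methods' equal-variance test on FPKM, other transcript choices and mice left out. Adding the assembled transcripts, the GENCODE class, the share tests and size factors with mice left out was chosen after seeing the data. Mouse numbers did not pair mice: over 24 pairs with the same number the median r of deviations was -0.0230, and 3 were over 0.1. Python 3.11.15 with numpy 2.4.6, pandas 2.3.3, scipy 1.17.1 and matplotlib 3.10.9 was used.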

Additional observations from a re-analysis of the deposited data

Results flagged for a closer look

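In 5 of the 84 groups of 4 mice tested, 1 mouse lay far from the other 3, where chance gives about 1 in 20. The Grik1 retained-intron transcript ENSMUST00000211635.1 was listed at 1.32e-16 FPKM in LH replicate 4, and at 0.550 to 0.593 FPKM in the other LH mice. ENSMUST00000147808.1 of Grik2 was at 5.11 FPKM in Ctrl replicate 1, above the other Ctrl mice, and at 3.98 FPKM in LH replicate 4, below the other LH mice. ENSMUST00000105483.1 of Grik2 was at 3.72 FPKM in NLH replicate 3, above the other NLH mice. ENSMUST00000114865.7 of Grik4 was at 1.04 FPKM in NLH replicate 2, above the other NLH mice.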

How the results depend on the processing

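No kainate receptor gene sum or transcript passed the adjusted threshold in limma under any alternative fitted. At an unadjusted p under 0.05 limma gave 1, 0, 2 and 2 transcripts and 0 gene sums over Ctrl vs. HC, NLH vs. Ctrl, LH vs. Ctrl and finally LH vs. NLH. Size factors gave 2 gene sums in LH vs. NLH (Grik1 and Grik3) and 3 transcripts there (ENSMUST00000105483.1, ENSMUST00000147808.1 and ENSMUST00000030676.7), without ENSMUST00000206132.1. A pseudocount of 1 or a mean of at least 1 FPKM gave 0 transcripts in Ctrl vs. HC. With only the groups compared it gave 3 transcripts in Ctrl vs. HC (ENSMUST00000129279.1, ENSMUST00000034515.6 and ENSMUST00000205661.1), 1 in NLH vs. Ctrl (ENSMUST00000210700.1) and 1 in LH vs. NLH (ENSMUST00000105483.1). When LH replicates 3 and 4 were left out it gave 1 gene sum (Grik1) and 4 transcripts in LH vs. Ctrl, where ENSMUST00000023652.15 and ENSMUST00000034515.6 were higher in LH. Without any 1 of 3 HC or 3 Ctrl mice ENSMUST00000129279.1 was no longer under it in Ctrl vs. HC. The methods' equal-variance test on FPKM gave 2 transcripts in Ctrl vs. HC (ENSMUST00000129279.1 and ENSMUST00000034515.6), 1 transcript (ENSMUST00000210700.1) and 1 gene sum (Grik1) in NLH vs. Ctrl, 2 transcripts (LH vs. Ctrl) and 1 (LH vs. NLH). The exact permutation test gave 1 transcript for Ctrl vs. HC, 2 for LH vs. Ctrl and 1 for LH vs. NLH. Without LH replicates 3 and 4, 4 partner genes passed the adjusted threshold in LH vs. Ctrl, in place of 0, and 0 with size factors in addition.

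Several small log2 differences changed sign. With size factors they were -0.022 for Grik2 in Ctrl vs. HC, and -0.064, -0.015 and -0.018 for Grik2, Grik4 and Grik5 in NLH vs. Ctrl. With GENCODE protein coding transcripts only, Grik1 in Ctrl vs. HC was 0.0035 and Grik2 in NLH vs. Ctrl -0.078. With the assembled transcripts, Grik5 in Ctrl vs. HC was 0.042, Grik3, Grik4 and Grik5 in NLH vs. Ctrl were 0.052, -0.023 and -0.13, Grik1 and Grik2 in LH vs. Ctrl 0.17 and 0.075, and Grik2 in LH vs. NLH 0.069. Without LH replicates 3 and 4, Grik1, Grik2, Grik4 and Grik5 were 0.30, 0.12, 0.38 and 0.16 in LH vs. Ctrl and 0.061, 0.11, 0.31 and 0.097 in LH vs. NLH. With size factors in addition, chosen after seeing the data, they were 0.073 for Grik1 and 0.14 for Grik4 in LH vs. Ctrl and 0.16 for Grik4 in LH vs. NLH. For usage, a pseudocount of 0.01 gave 0.13 for ENSMUST00000105483.1 in NLH vs. Ctrl and 0.27 for ENSMUST00000206132.1 in LH vs. NLH, a pseudocount of 1 gave 0.0045 for ENSMUST00000129279.1 in LH vs. Ctrl, and leaving out LH replicates 3 and 4 gave -0.10 for it in LH vs. NLH. The cause was not tested.

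Leaving out 1 mouse at a time, Grik1 ranged from -0.27 to 0.070 in LH vs. Ctrl. Grik2 ranged from -0.0069 to 0.025 in Ctrl vs. HC, -0.057 to 0.068 in NLH vs. Ctrl, -0.15 to 0.043 in LH vs. Ctrl and -0.17 to 0.030 in LH vs. NLH. Grik3 ranged from -0.21 to 0.10 in NLH vs. Ctrl. Grik4 ranged from -0.046 to 0.18 in NLH vs. Ctrl, -0.39 to 0.098 in LH vs. Ctrl and -0.46 to 0.036 in LH vs. NLH. Grik5 ranged from -0.15 to 0.016 in Ctrl vs. HC, -0.043 to 0.16 in NLH vs. Ctrl and -0.26 to 0.021 in LH vs. Ctrl. ENSMUST00000105483.1 ranged from -0.11 to 0.10 in NLH vs. Ctrl, and its usage from -0.17 to 0.11. ENSMUST00000129279.1 ranged from -0.86 to 0.12 in NLH vs. Ctrl and -0.58 to 0.41 in LH vs. NLH, where its usage ranged from -0.18 to 0.74. The usage of ENSMUST00000206132.1 ranged from -0.65 to 0.074 in NLH vs. Ctrl and -0.83 to 0.23 in LH vs. NLH.

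With the mouse number as a replicate block, 0 gene sums and 0 transcripts were called and no call changed. Each mouse correlated best with its own number in 3 of 16 cases. Depth, 20175000 to 38075000 estimated fragments, limits the transcripts under 0.1 FPKM.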
